A study of Homo sapiens with 24 samples.

Results

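A set of 8 genes of prostate identity and steroid hormone response was followed in PPC1, a prostate cancer cell line, before and after its conversion to polyploid giant cancer cells (PGCC). They were found by symbol among the 48162 genes of the count table, which held all 8 of them: NR3C1, KLK3, FOXA1, HOXB13, TMPRSS2, FOLH1, STEAP1 and STEAP2. The 24 RNA-seq libraries came from 4 conditions, 6 of each, with all conditions collected side by side on day 5. The paper names 6 sets of RNA isolations, and libraries with the same replicate number were taken here as the same experiment. Parental cells (UT) were left untreated or were given 5 μM LCL521, an inhibitor of acid ceramidase, for 5 h (UT_LCL). PGCC received 8 Gy on day 2 and were collected on a 20 micron filter, without LCL521 (PGCC) or after it (PGCC_LCL). The labels name no vehicle for the controls, and parental cells were neither irradiated nor filtered, so radiation, filtration and the giant cell state cannot be told apart in these comparisons. The study's methods count the day of LCL521 exposure differently from the labels.

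In the prostate, androgen drives genes such as KLK3 and TMPRSS2 in luminal cells, at enhancers that the pioneer factor FOXA1 opens and that HOXB13 shares. The glucocorticoid receptor, encoded by NR3C1, is a ligand-activated transcription factor that binds DNA as a dimer and is known to drive some of the same genes in prostate cancer cells that no longer depend on androgen. FOLH1, which encodes the membrane antigen PSMA, and STEAP1 and STEAP2, which encode members of a metalloreductase family, are surface proteins used as prostate cancer markers and targets.

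Total counts lay between 14835246 and 19906601 per library, and 3 counts, taken here as the floor of detection, corresponded to between 0.151 and 0.202 CPM, the counts scaled to library size. Such floors cover counting error only. In a principal component analysis the first component (55.9% of the variance) separated parental cells from PGCC, and the second (16.5%) separated replicates 4 and 5 of every condition from the other 4 replicates. Results are therefore also given with replicates 4 and 5 left out where that matters. In bulk RNA, fewer cells with a transcript and less transcript per cell cannot be told apart. CPM are also relative to the other transcripts of a library, and RNA per cell was not measured. A fall or rise in CPM therefore need not be a change in transcript number per cell.

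KLK3, TMPRSS2 and FOLH1 were under the floor of detection in these cells, whereas the lineage transcription factors FOXA1 and HOXB13 were among the abundant transcripts. KLK3 and FOLH1 had 0 counts in all 24 libraries, and TMPRSS2 never exceeded 2, so 3 of the 8 genes were under 3 counts in every library. The other 5 were well above the floor in all 24. Per kilobase of gene length, mean parental levels were 215 CPM per kb for HOXB13, 76.4 for FOXA1, 38.2 for STEAP1, 4.85 for NR3C1 and 2.30 for STEAP2. The ranges of FOXA1 and STEAP1 did not overlap in parental cells. In PGCC they did, at means of 43.1 and 40.2 CPM per kb, while HOXB13 remained above both at 123. The ranges of NR3C1 and STEAP2 overlapped in UT and in PGCC without LCL521. HOXB13 ranked between 138 and 235 among all genes by count in the 6 parental libraries and between 226 and 487 in the 6 PGCC libraries.

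**Figure D1:**
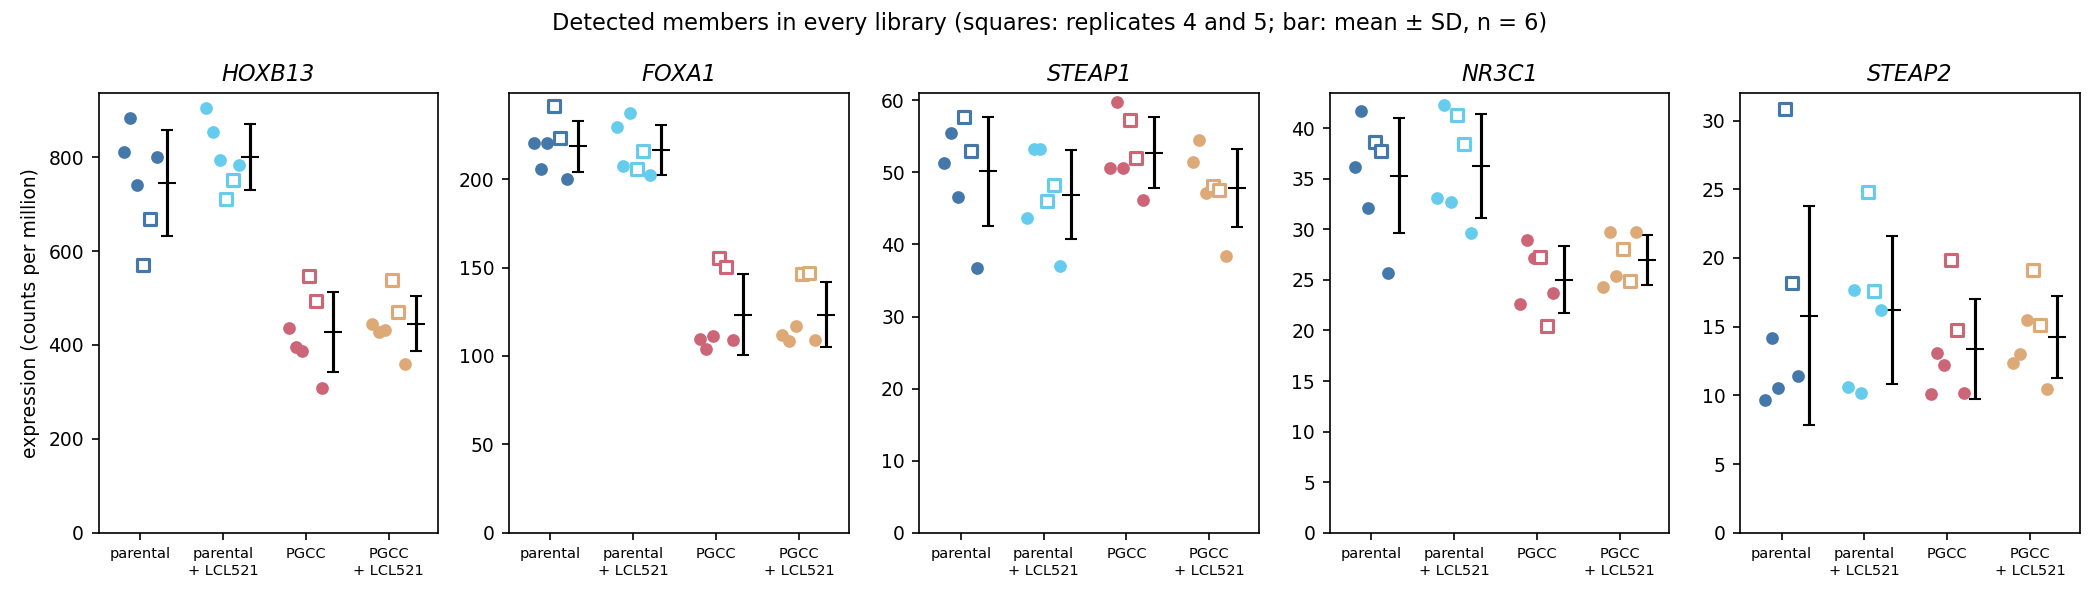
Expression in CPM (linear axes from 0) of the 5 detected genes in each of the 24 libraries by condition; circles are replicates 1, 2, 3 and 6, squares are replicates 4 and 5, and black bars give the mean ± SD of 6 libraries. HOXB13 and FOXA1 lie lower in every PGCC library than in any parental library of the same treatment, NR3C1 overlaps slightly, and STEAP1 and STEAP2 overlap throughout.

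KLK3 encodes prostate-specific antigen, a secreted protease and the classical readout of androgen response. It lies on chromosome 19 (hg19, 51358171 to 51364020, plus strand). A count of 0 allows a level of up to 0.202 CPM in the shallowest library. Its promoter is shown because it carries a hexamer found in androgen and glucocorticoid receptor binding sites and the gene had no counts. The 250 bases before the start site (RefSeq, GRCh38.p14, chr19:50854665-50854914, plus strand) are given with the hexamer AGAACA, searched on both strands as AGAACA and TGTTCT, in capitals:
KLK3: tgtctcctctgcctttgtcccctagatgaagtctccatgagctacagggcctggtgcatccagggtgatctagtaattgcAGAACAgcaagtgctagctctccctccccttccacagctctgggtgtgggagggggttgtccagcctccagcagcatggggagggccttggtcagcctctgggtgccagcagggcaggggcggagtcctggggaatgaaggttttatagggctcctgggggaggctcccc
The match begins 170 bases before the start, and 12.4% of the 35116 promoters in the RefSeq table hold one in a window of the same length. A match is a description of the letters and says nothing of binding.

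TMPRSS2 encodes a membrane serine protease whose androgen-driven promoter is often fused to ETS genes in prostate cancer. It lies on chromosome 21 (hg19, 42836478 to 42903043, minus strand). It had 0 counts in all 6 parental libraries and 10 counts in all over the 24 libraries, spread over 6 of them. Of these, 3 were parental with LCL521, 2 were PGCC and 1 was PGCC with LCL521. FOLH1, on chromosome 11 (hg19, 49168187 to 49230222, minus strand), was at 0 together with its near-identical copy FOLH1B, and how the counting treated reads that match both copies is not given, so their 0 is uncertain. These 3 genes did not pass the filter on low counts and entered no test.

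Most other kallikrein genes, and part of the androgen-responsive genes, had few or no counts. Of the 14 other kallikrein genes, 12 were under 3 counts in every library and 8 had no count at all. KLK14 alone was tested. With at most 9 counts in parental cells, it passed the filter on low counts only through PGCC libraries, which favours a rise. It rose in PGCC from between 1 and 9 counts to between 14 and 26 (log2 fold change 1.71, adjusted p = 0.000862 by the quasi-likelihood test of edgeR after Benjamini-Hochberg, BH, adjustment). Of 16 androgen-responsive prostate genes listed beside the 8, 7 were under 3 counts in every library, among them KLK2, KLK4 and NPY at 0 throughout.

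Between parental cells and PGCC, 3 of the 5 detected genes fell and none rose: FOXA1, HOXB13 and NR3C1. The change was broad across the transcriptome, since 47.4% of the 13812 genes tested passed the threshold and 24.3% were lower, so 3 of 5 is read against that background. With LCL521 in both arms, on other libraries of the same replicate numbers, the same 3 genes fell, where 48.9% of 13818 genes passed and 23.9% were lower. This was no independent repeat, since same-numbered libraries with and without LCL521 deviated together (median r 0.652 in parental cells and 0.532 in PGCC). P-values measure the spread among the 6 libraries of each condition.

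FOXA1, on chromosome 14 (hg19, 38059189 to 38069245, minus strand), encodes the forkhead pioneer factor that opens chromatin for steroid receptors. Its level ranged from 200 to 241 CPM in parental cells with a median of 221, and from 104 to 155 CPM in PGCC with a median of 111. The groups did not overlap, and the 2 highest PGCC libraries were replicates 4 and 5. Of all genes tested, 12.9% were lower without overlap. FOXA1 fell by 0.82 on the log2 scale (SE 0.106, adjusted p = 2.71e-05, edgeR quasi-likelihood test, BH adjustment), and the exact permutation test gave p = 0.00216, the smallest it can give with 6 against 6 libraries. With LCL521 it ranged from 203 to 238 CPM in parental cells (median 212) and from 108 to 147 CPM in PGCC (median 114), again without overlap and with replicates 4 and 5 highest in PGCC. Of all genes tested, 13.7% were lower without overlap there. The fall was then 0.79 (SE 0.0942, adjusted p = 1.14e-05, edgeR, BH adjustment).

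TTC6 overlaps FOXA1 on the opposite strand, and whether reads were assigned by strand is not given in the sources used here. It had between 82 and 206 counts per library, far below FOXA1, and its log2 fold change in PGCC was -0.09 (adjusted p = 0.697, edgeR, BH adjustment). Of the FOXA1 relatives, FOXA2 was at 15.7 ± 3.28 CPM in parental cells and 14.8 ± 6.58 in PGCC (SD, n = 6), with a log2 fold change of -0.09 that did not pass the test (adjusted p = 0.795, edgeR, BH adjustment). Without replicates 4 and 5 it was -0.35 and passed (adjusted p = 0.0310, edgeR, BH adjustment). FOXA3 had at most 5 counts in any library.

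HOXB13, on chromosome 17 (hg19, 46802125 to 46806540, minus strand), is the posterior homeobox gene that marks prostate epithelium. Its level ranged from 570 to 883 CPM in parental cells (median 771) and from 308 to 548 CPM in PGCC (median 416). The groups did not overlap, although the lowest parental and the highest PGCC library, both of replicate 4, were close together at 570 and 548 CPM. HOXB13 fell by 0.80 on the log2 scale (SE 0.131, adjusted p = 0.000213, edgeR quasi-likelihood test, BH adjustment; exact permutation p = 0.00216). With LCL521 the parental range was 711 to 906 CPM (median 788) and the PGCC range 361 to 539 CPM (median 438). The gap was wider there, and the fall was 0.82 (SE 0.0893, adjusted p = 4.80e-06, edgeR, BH adjustment).

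HOXB-AS5, an antisense RNA that overlaps the end of HOXB13, had between 98 and 324 counts per library and fell by 1.00 in PGCC (adjusted p = 0.000217, edgeR, BH adjustment). HOXB13 itself had between 5520 and 15212 counts per library. Without knowledge of the strand setting, reads in the overlap cannot be assigned to either gene. The rest of the HOXB cluster was nearly silent. Of the 9 other HOXB genes, 7 were under 3 counts in every library, HOXB7 reached at most 5 counts and HOXB9 at most 3, and none was tested.

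The size of the HOXB13 and FOXA1 differences depended on the experiment. In same-numbered libraries, HOXB13 was lower in PGCC by between 0.90 and 1.38 in replicates 1, 2, 3 and 6, by 0.43 in replicate 5 and by 0.06 in replicate 4. HOXB13 averaged 809 CPM in the 4 parental libraries and 381 CPM in the 4 PGCC libraries of the first set, against 619 and 521 CPM in replicates 4 and 5. FOXA1 differed by a mean of -0.96 in the first set and -0.60 in the second. With LCL521 the corresponding means were -1.01 and -0.54 for HOXB13 and -0.97 and -0.52 for FOXA1. Every one of the 6 pairs was lower for both genes in both comparisons (exact permutation of signs, p = 0.0312, the smallest that 6 pairs allow). The difference between the sets was noticed in the data and was not tested.

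**Figure D2:**
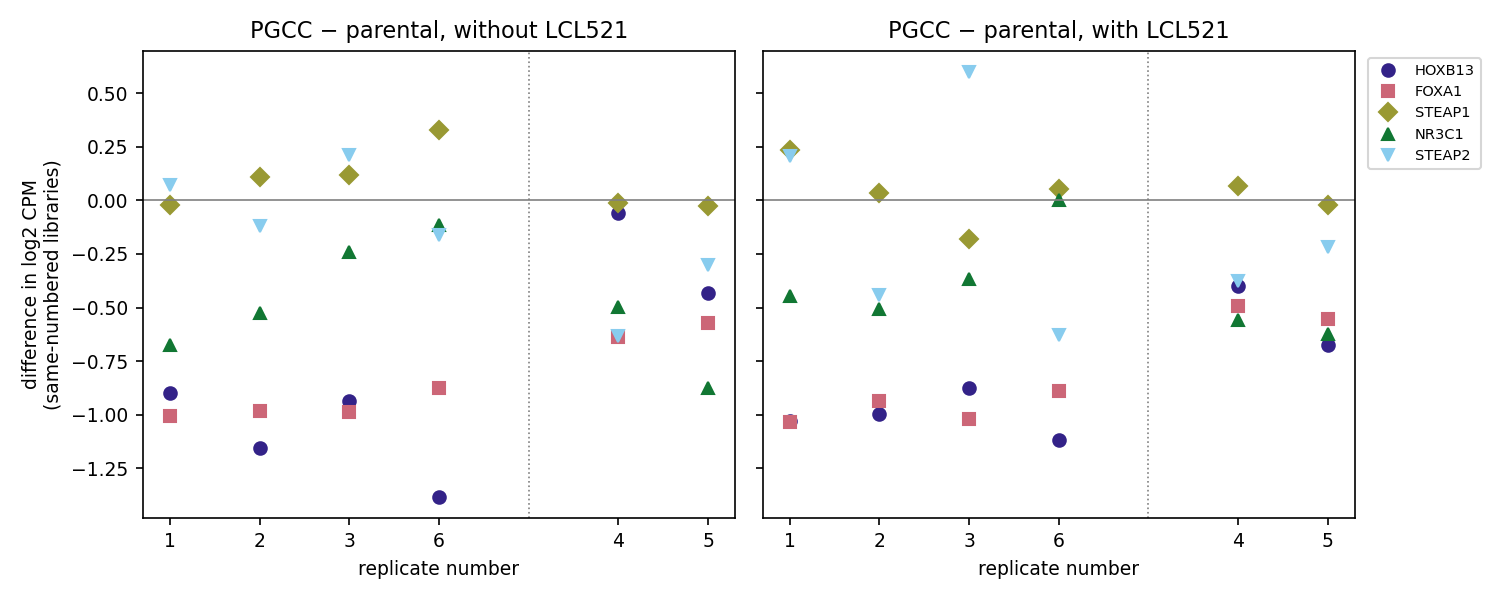
Difference in log2 CPM between PGCC and parental libraries of the same replicate number, without LCL521 (left) and with it (right), for the 5 detected genes; the dotted line sets replicates 4 and 5 apart. HOXB13 (circles) and FOXA1 (squares) are below 0 in all 6 replicates of both panels, and closer to 0 in replicates 4 and 5 than in the others.

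NR3C1, on chromosome 5 (hg19, 142657496 to 142815077, minus strand), encodes the glucocorticoid receptor. Its level ranged from 25.7 to 41.7 CPM in parental cells (median 36.9) and from 20.5 to 29.0 CPM in PGCC (median 25.4). One parental library, replicate 6, lay inside the PGCC range, and the other 5 lay above it. NR3C1 fell by 0.49 on the log2 scale (SE 0.125, adjusted p = 0.00534, edgeR quasi-likelihood test, BH adjustment; exact permutation p = 0.00866). With LCL521 it ranged from 29.7 to 42.3 CPM in parental cells (median 35.8) and from 24.3 to 29.8 CPM in PGCC (median 26.7), so the lowest parental library fell just inside the PGCC range. The fall was 0.40 (SE 0.106, adjusted p = 0.00630, edgeR, BH adjustment; exact permutation p = 0.00649). Of the 6 same-numbered pairs 5 were lower and replicate 6 was at 0.00, and the exact permutation of signs gave p = 0.0625, against 6 of 6 lower and p = 0.0312 without LCL521. In same-numbered libraries without LCL521, NR3C1 differed by a mean of -0.69 in replicates 4 and 5 and -0.39 in the other 4. A pseudogene on the opposite strand inside NR3C1, RP11-278J6.1, had at most 8 counts.

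NR3C1 has 7 start sites in the RefSeq table. The 250 bases before one of them (GRCh38.p14, chr5:143403284-143403533, minus strand) are shown because they are the only ones of the 7 with the forkhead letters TGTTTAC, searched on both strands as TGTTTAC and GTAAACA and set in capitals:
NR3C1: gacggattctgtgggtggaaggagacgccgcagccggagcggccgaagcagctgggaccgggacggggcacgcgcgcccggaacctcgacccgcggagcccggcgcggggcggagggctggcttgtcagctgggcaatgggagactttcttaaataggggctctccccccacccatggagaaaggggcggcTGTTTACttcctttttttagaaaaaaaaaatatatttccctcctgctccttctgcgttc
The match begins 59 bases before the start. Such letters stand in 2.98% of the promoters in the table. The FOXA1 promoter window held neither the forkhead letters nor the receptor hexamer.

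STEAP1 and STEAP2 lie side by side on chromosome 7 (hg19, 89783689 to 89794143 and 89796904 to 89867451, plus strand) and did not pass the test in either comparison. STEAP1 ranged from 36.8 to 57.7 CPM in parental cells (median 52.1) and from 46.2 to 59.8 CPM in PGCC (median 51.3). The ranges overlapped, with a log2 fold change of 0.08 (95% interval -0.15 to 0.31, adjusted p = 0.567, edgeR, BH adjustment). With LCL521 it was 0.05 (95% interval -0.17 to 0.28). A fall of the size seen for FOXA1 lies outside both intervals. STEAP1 shares sequence with STEAP1B, which had at most 10 counts in any library.

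STEAP2 ranged from 9.64 to 30.8 CPM in parental cells (median 12.8) and from 10.1 to 19.8 CPM in PGCC (median 12.7). The highest library of every condition was replicate 4, and replicates 4 and 5 averaged 24.5 CPM against 11.4 CPM in the other parental libraries. The log2 fold change of -0.24 had a wide interval of -0.82 to 0.34 (adjusted p = 0.495, edgeR, BH adjustment), and it was 0.01 without replicates 4 and 5. With LCL521 it was -0.16 (95% interval -0.62 to 0.29). The ratio of STEAP1 to STEAP2 per kilobase ran from 9.80 to 27.9 in parental cells and from 15.1 to 26.1 in PGCC, so these neighbouring genes did not keep a fixed ratio even among parental libraries. STEAP3, a metalloreductase of the same family, was at 77.0 ± 12.4 CPM in parental cells and 64.2 ± 10.6 in PGCC (SD, n = 6) and did not pass (log2 fold change -0.25, adjusted p = 0.110), but fell by 0.48 without replicates 4 and 5 (adjusted p = 0.00268; edgeR, BH adjustment). STEAP4 had at most 7 counts.

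The second of 2 STEAP2 start sites (GRCh38.p14, chr7:90213570-90213819, plus strand) is shown for comparison with NR3C1, since it was the other window with the forkhead letters, 66 bases before the start:
STEAP2: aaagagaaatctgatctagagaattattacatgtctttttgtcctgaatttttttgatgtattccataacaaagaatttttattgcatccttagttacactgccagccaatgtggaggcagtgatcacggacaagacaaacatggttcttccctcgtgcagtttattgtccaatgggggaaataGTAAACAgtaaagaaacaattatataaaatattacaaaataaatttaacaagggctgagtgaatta
Neither the windows of the 5 genes with an entry nor their reverse strands held CCAATAAA, the HOXB13 letters, which stand in 0.863% of promoters.

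LCL521 for 5 h moved none of the 5 detected genes past the threshold. In parental cells 0% of 13277 genes passed (71 had an unadjusted p under 0.05), and with DESeq2 it was also 0. Same-numbered libraries deviated together (median r 0.652), and with the replicate block 115 genes passed (0.866%). In PGCC 0.00707% of 14151 genes passed, which is 1 gene, against 7 by DESeq2 and 234 (1.65%) with the replicate block. None of the 5 passed with the block either. Of the genes listed beside them, NDRG1, named after its values were seen, rose with the block by 0.31 in parental cells and 0.26 in PGCC (adjusted p = 0.00713 and 4.20e-05, edgeR, BH adjustment). The log2 differences of HOXB13 were 0.11 in parental cells (95% interval -0.11 to 0.33) and 0.06 in PGCC (-0.19 to 0.32). For FOXA1 they were -0.01 (-0.15 to 0.14) and 0.00 (-0.25 to 0.26), and for NR3C1 0.05 (-0.22 to 0.31) and 0.11 (-0.10 to 0.32). For STEAP1 they were -0.09 (-0.34 to 0.16) and -0.14 (-0.32 to 0.04). STEAP2 was the least precise, at 0.04 (-0.61 to 0.69) and 0.09 (-0.28 to 0.46). The effect of LCL521 did not differ detectably between PGCC and parental cells for any of the 5, with 0% of 14555 genes past the threshold and 60 at an unadjusted p under 0.05 (edgeR), and 0 by DESeq2.

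**Figure D3:**
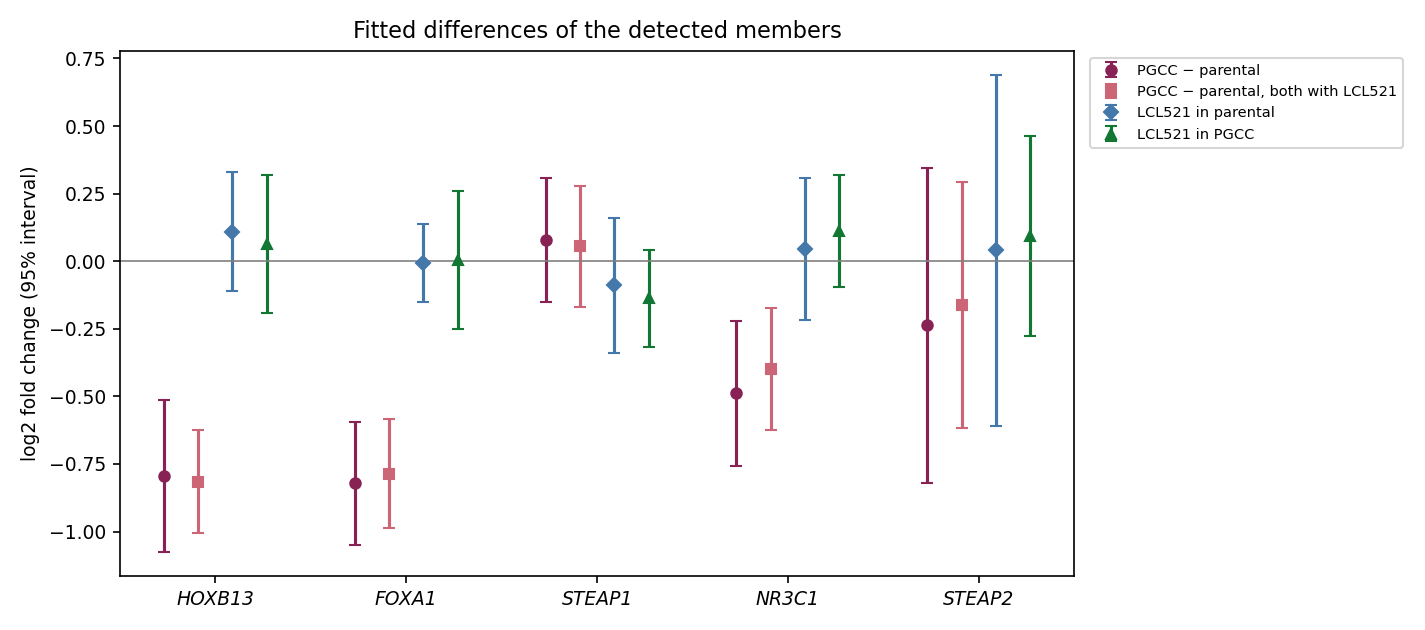
Fitted log2 fold changes with 95% intervals (edgeR) of the 5 detected genes in 4 comparisons: PGCC against parental cells without and with LCL521, and LCL521 against none in parental cells and in PGCC. The intervals of HOXB13, FOXA1 and NR3C1 lie below 0 in both PGCC comparisons, and all LCL521 intervals include 0.

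The genes that act with the glucocorticoid receptor moved unevenly. Of its 10 listed chaperones and cochaperones, BAG1 and FKBP4 fell in PGCC by 0.85 and 0.45 (adjusted p = 0.000434 and 0.0372, edgeR, BH adjustment) and 8 did not pass. The list median was -0.18 against -0.03 over all genes tested. Over all genes tested, 24.3% were lower. With the replicate block 4 fell, where 28.3% of all genes did. Without replicates 4 and 5, 8 of the 10 fell, where 26.9% of all genes did. With LCL521 in both arms, 1 fell and 9 did not pass, where 23.9% of all genes were lower. Of 10 coregulators, NRIP1 rose by 0.82 (adjusted p = 0.00102), NCOR1 and NCOA1 fell by 0.74 and 0.64 (adjusted p = 5.73e-05 and 0.000206; edgeR, BH adjustment), and 7 did not pass. Over all genes tested, 47.4% passed, with 23.1% higher and 24.3% lower. The list median was -0.08, and 3 rose and 3 fell without replicates 4 and 5, where 27.7% of all genes rose and 26.9% fell. Of the enzymes that interconvert cortisol and cortisone, H6PD, which supplies the cofactor for reactivation, fell by 1.03, and HSD11B2, which inactivates cortisol, fell by 0.63 (adjusted p = 0.000461 and 0.0111, edgeR, BH adjustment). Without replicates 4 and 5 the log2 fold change of HSD11B2 was -0.94. HSD11B1 had at most 2 counts.

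Among 16 genes known to be induced by glucocorticoids, 14 were tested, 8 rose, none fell and 6 did not pass, with a median of 1.02 where 23.1% of all genes rose. BIRC3 went from 1.67 ± 0.541 to 33.1 ± 21.9 CPM and TNFAIP3 from 2.21 ± 1.13 to 36.1 ± 20.9 (SD, n = 6), with log2 fold changes of 4.31 and 4.04 (adjusted p = 2.95e-05 and 2.35e-05, edgeR, BH adjustment). Both are known NF-κB targets that inhibit cell death and inflammatory signalling. FKBP5 and TSC22D3, picked out after their values were seen, had log2 fold changes of 0.16 and -0.51 and did not pass (adjusted p = 0.541 and 0.354, edgeR, BH adjustment). PER1, DUSP1 and SGK1, also named after their values were seen, were among the 8 that rose. Their log2 fold changes were 1.08, 1.25 and 0.96 (adjusted p = 0.000923, 0.000807 and 0.00769, edgeR, BH adjustment). With LCL521 in both arms, 9 of 14 rose and none fell, where 25.0% of all genes rose. TSC22D3 then had a log2 fold change of -0.08 and, without replicates 4 and 5, of 0.59, which passed (adjusted p = 0.0104, edgeR, BH adjustment).

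The other steroid receptors were scarce. NR3C2, the mineralocorticoid receptor, was at 7.50 ± 3.02 CPM in parental cells and 9.45 ± 2.07 in PGCC (SD, n = 6) and did not pass (log2 fold change 0.34, adjusted p = 0.290, edgeR, BH adjustment), but did with the replicate block (0.41, adjusted p = 0.0422, edgeR, BH adjustment). ESR2 rose from between 0 and 10 counts to between 9 and 15 (log2 fold change 1.37, adjusted p = 0.0278, edgeR, BH adjustment). ESR2 passed the filter on low counts through its PGCC libraries, which favours a rise. It was too low for the test without replicates 4 and 5 and with LCL521. ESR1 had between 2 and 24 counts in PGCC and PGR at most 3 in any library, and neither was tested.

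Of the 8 androgen-responsive genes that could be tested, 2 rose, 2 fell and 4 did not pass, with a median of 0.06, where 47.4% of all genes passed. ALDH1A3, named after its values were seen, was among the 4 (log2 fold change 0.24) and passed with the replicate block (adjusted p = 0.00707) and with LCL521 in both arms (0.44, adjusted p = 0.00840; edgeR, BH adjustment). TRPM8, a cation channel, rose by 1.15 on few counts (between 6 and 17 in parental cells and between 17 and 32 in PGCC; adjusted p = 0.00656), and ELL2 rose by 0.57 (adjusted p = 0.0216; edgeR, BH adjustment), or by 0.87 without replicates 4 and 5. TRPM8 passed the filter on low counts through its PGCC libraries, which favours a rise. With LCL521 in both arms TRPM8 had a log2 fold change of 0.77 and did not pass (adjusted p = 0.0665, edgeR, BH adjustment). CAMKK2, a kinase, and SLC45A3, a prostate membrane protein, fell by 0.59 and 0.58 (adjusted p = 0.000186 and 0.0250, edgeR, BH adjustment). TMPRSS3, a relative of TMPRSS2, rose by 1.37 (adjusted p = 0.00113), and NAALADL2, a relative of FOLH1, fell by 0.94 (adjusted p = 0.000263; edgeR, BH adjustment). The protease inhibitor SPINT2 had a log2 fold change of -0.05 and did not pass.

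Markers of prostate cell types were read as summed levels beside these results, and their part in them was not tested. Of 10 luminal epithelial genes tested, 4 rose, 3 fell and 3 did not pass, against 23.1% higher and 24.3% lower over all genes. The rises of GATA2 and KRT19 were lost without replicates 4 and 5 (adjusted p = 0.352 and 0.0691, edgeR, BH adjustment), and that of GATA2 also with the replicate block (adjusted p = 0.0572, edgeR, BH adjustment). KRT8, a luminal keratin, rose by 1.35 and ELF3 by 0.71 (adjusted p = 3.51e-06 and 0.000102), whereas ESRP1, a splicing regulator, fell by 4.96 and SPDEF by 0.71 (adjusted p = 0.00187 and 0.00495; edgeR, BH adjustment). ESRP1 had between 15 and 1138 counts in parental cells, and its log2 fold change was -2.45 without replicates 4 and 5. The summed luminal level lay between 933 and 1147 CPM in parental cells and between 1058 and 1620 CPM in PGCC. Of 7 basal genes tested, 3 rose, none fell and 4 did not pass, against 23.1% higher and 24.3% lower over all genes. Without replicates 4 and 5, 5 rose and 1 fell, where 27.7% of all genes rose and 26.9% fell. Among those 5, TP63, a basal transcription factor, changed sign from -0.34, which did not pass, to 1.69 (adjusted p = 0.000446, edgeR, BH adjustment). KRT14, a basal keratin whose reads can be shared with related keratins, went from between 0 and 2 counts to between 54 and 152 (adjusted p = 1.06e-06), and LAMB3 rose by 1.94 (adjusted p = 2.38e-07; edgeR, BH adjustment). KRT14 passed the filter on low counts only through its PGCC libraries, which favours a rise. The summed basal level lay between 311 and 654 CPM in parental cells and between 481 and 645 CPM in PGCC.

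Of 3 neuroendocrine genes tested, SYP rose by 1.14 and ENO2 by 0.70, and SYT1 fell by 0.66 (adjusted p = 0.00890, 0.0208 and 0.00447, edgeR, BH adjustment). SYP had few counts, between 6 and 19 in parental cells and between 14 and 36 in PGCC. It passed the filter on low counts through its PGCC libraries, which favours a rise. Over all genes tested, 47.4% passed. The call of SYT1 was lost without replicates 4 and 5 (-0.33, adjusted p = 0.0552, edgeR, BH adjustment). The transcription factor INSM1 had no count in any of the 24 libraries. Of 12 stromal, endothelial and leukocyte genes, 4 were tested, and PTPRC and COL3A1 rose by 1.39 and 1.02 (adjusted p = 0.0164 and 0.00772, edgeR, BH adjustment), PTPRC by 2.63 without replicates 4 and 5. PTPRC, with between 6 and 47 counts in parental cells and between 42 and 70 in PGCC, also passed the filter through its PGCC libraries. Over all genes tested, 23.1% were higher. The summed level of the 12 was low throughout, between 11.3 and 17.4 CPM in parental cells and at most 19.6 CPM in PGCC, and CD3E was at 0 in both.

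**Figure D4:**
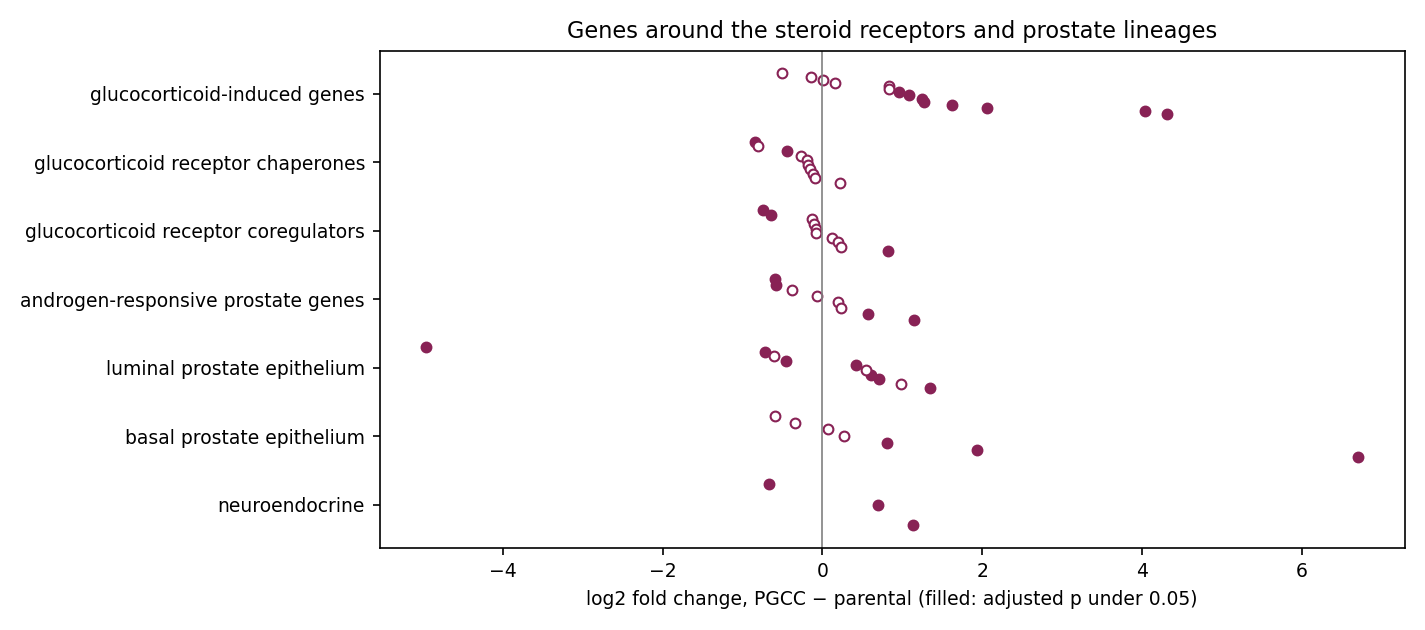
Log2 fold changes (edgeR, PGCC against parental cells without LCL521) of the tested genes of 7 lists, with filled points for an adjusted p under 0.05. Glucocorticoid-induced genes lie mostly to the right of 0; the far right point, KRT14, rests on 0 to 2 parental counts and its position depends on the prior count, and the far left point is ESRP1.

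After the condition means were removed, the genes that varied most like each of the 5 over the 24 libraries were found among 10652 genes by Pearson's r, as a description. They were PIGN, FAM60A and TMEM99 for NR3C1 (r from 0.785 to 0.818) and RP11-102F4.3, NFIA and FLOT2 for FOXA1 (0.843 to 0.910). They were MAPKAPK3, APEX1 and HPCAL1 for HOXB13 (0.902 to 0.908), SMIM11, LYRM7 and FGD5-AS1 for STEAP1 (0.862 to 0.891), and MST1R, SLITRK6 and RP11-27I1.2 for STEAP2 (0.920 to 0.923). These libraries share the 6 experiments, and the offset of replicates 4 and 5 enters each r. For FOXA1 and its 3 genes r was between 0.177 and 0.454 in the other 16 libraries, and of all 15 genes only SMIM11 stayed among the 3 most alike there.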

How the data were processed

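RNA of PPC1 cells was sequenced in 24 libraries. The authors deposited raw HTSeq counts per gene, made from STAR alignments to hg19 per the submitters' processing notes; CASAVA and DESeq2 are also named there. The strand setting and annotation release are not given in the sources used here. No per-sample column was left unused. Counts were scaled by TMM, genes were filtered by filterByExpr (minimum count 10, minimum total 15), and each comparison was tested on its 12 libraries with edgeR 4.0.16 (R 4.3.3; quasi-likelihood test, Benjamini-Hochberg adjustment over all genes tested, threshold 0.05). The interaction used all 24 libraries. Levels are CPM with TMM factors over 24 libraries, and log2 CPM carries a prior count of 2. Single genes were also tested by two-sided exact permutation (divisions of 6 against 6 libraries, or sign changes of 6 pairs). Fits were tested on simulated data.

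The replicate numbers were taken to mark 6 experiments, where the paper names 6 sets of RNA isolations. Same-numbered libraries deviated together from their condition means (median r 0.344, 0.272, 0.652 and 0.532 in the 4 comparisons, every pair above 0.1; different numbers -0.0891 to -0.0799 in the PGCC comparisons), so fits with a replicate block were run beside the main ones, which have none because the methods name none.

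The members, gene lists and alternatives were chosen with earlier results of these data known. Text names all members, the 2 largest rises and falls past the threshold in each list, relatives of members, and the 3 most similar genes. Alternatives were DESeq2 1.42.0, limma-voom 3.58.1, RLE, upper quartile and library-total scaling, other filters, 1 fit of all libraries, the block, and leaving out replicates. Promoters came from the RefSeq table (GRCh38.p14), which matched 5 members, with HOXB13, TMPRSS2 and FOLH1 unmatched; coordinates of the 2 builds were not mixed. Values of some genes on the lists are not reported here.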

Additional observations from a re-analysis of the deposited data

How the results depend on the processing

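The count of members past the threshold stayed at 3 in both PGCC comparisons and at 0 in the LCL521 comparisons and the interaction under every alternative run (84 values). FOXA1, HOXB13 and NR3C1 fell and passed in all 17 alternatives of each PGCC comparison. Their log2 fold changes without LCL521 ran from -0.95 to -0.72, from -1.07 to -0.70 and from -0.55 to -0.38, and NR3C1 had a largest adjusted p of 0.0303 (0.0492 with LCL521; edgeR, Benjamini-Hochberg adjustment). With the replicate block, on the pairing of the 6 experiments, the 3 values were -0.84, -0.80 and -0.48, and the block changed no member's call. It raised the genes past the threshold from 0 to 115 (0.866%) for LCL521 in parental cells and from 1 to 234 (1.65%) in PGCC, where DESeq2 called 7.

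The members' values that changed sign did not pass in any of these settings. Leaving out replicates 4 and 5, without and with the block, gave STEAP2 0.0120 and 0.0173 in PGCC against parental cells, FOXA1 0.0614 and 0.0599 for LCL521 in parental cells, and for the interaction FOXA1 -0.0144 and -0.0138, HOXB13 0.0787 and 0.0852, and STEAP2 -0.0926 and -0.0788. Library totals gave FOXA1 0.0153 for LCL521 in parental cells and -0.00240 for the interaction. Leaving out 1 replicate at a time, FOXA1 ran from -0.0348 to 0.0371 and STEAP2 from -0.0435 to 0.184 for LCL521 in parental cells, FOXA1 from -0.00357 to 0.0271 in PGCC, and for the interaction FOXA1 from -0.00782 to 0.0275, HOXB13 from -0.0996 to 0.0132, STEAP1 from -0.102 to 0.00921 and STEAP2 from -0.0387 to 0.140. The causes were not tested. Library totals also moved the share of higher calls in PGCC from 48.7% to 60.2% and the median change over the genes tested from -0.03 to 0.07. The order of the 5 levels was the same without division by length.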
